A study of Macaca mulatta with 2 samples.

Results

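The RAS-MAP kinase cascade was described through 51 genes of the macaque count table, chosen by name but with earlier results of these data known. The list held RAS proteins, their adaptors and regulators, RAF, MAP kinase kinase and MAP kinase genes, scaffolds, substrate kinases, feedback inhibitors and output genes, left out the DUSP phosphatases and was not the whole cascade. All 51 were found among the 33618 genes of the table, and all 51 were among the 18050 genes with at least 1 CPM (the reads on a gene relative to the size of its library) in either library. The data were read counts from the prefrontal cortex of 1 control (CON) and 1 sevoflurane-exposed (SEV) rhesus macaque, both 28 days old by the labels. CON and SEV below stand for these 2 libraries. By the labels, sevoflurane was inhaled on about postnatal days 7, 14 and 28, at 2.5 to 3% and for 4 h each time, and the study's methods give later days for the last 2 exposures. The methods state that tissue was taken directly after the last exposure, and the handling of the control animal up to that point is not described in the sources used here. The study asked which genes differ in primate cortex after repeated sevoflurane, and its protein work followed the phosphorylation of ERK, p38 and JNK, which the RNA counts given here do not measure.

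With 1 library per group there was no replicate and no test, so every difference below is between these 2 libraries and not between conditions. The control library held 16960880 reads and the sevoflurane library 9839105, of which the 51 genes took 0.606% and 0.540%. Each gene is given with its reads, with its CPM where useful, and with a log2 ratio (SEV over CON) that used a prior count of 2. The 95% interval behind each ratio comes from the exact binomial limits of the reads, covers counting error only and leaves out the variation between animals. A ratio was called beyond counting error where this interval excluded 0, and called at least 2-fold where its size was also at least 1. The libraries also differed in the 7 Y-linked genes examined, which held 3 reads in CON and 4308 in SEV. The study's methods describe the control animals as female and the exposed group as including a male, so that animal, exposure and sex cannot be told apart. The neuronal markers were present in both libraries, with a sum of 5495 and 4804 CPM over 9 genes, and no marker of the 6 cell types examined was at 0. In this bulk tissue, fewer cells of a type and less RNA per cell cannot be told apart.

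In the cascade, activated receptors recruit adaptors and exchange factors that load RAS with GTP. RAS then recruits RAF kinases, which phosphorylate MAP kinase kinases, which in turn phosphorylate MAP kinases on a threonine and a tyrosine. ERK carries growth factor and synaptic signals to the nucleus, whereas JNK and p38 respond largely to stress, and in cortical neurons ERK is known for its part in plasticity. Transcripts of the Sprouty and SPRED proteins are induced by ERK and their products restrain the cascade, which makes them a feedback arm.

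The transcripts of the feedback inhibitors were lower in the sevoflurane library. Those of the RAF, MAP kinase kinase and MAP kinase genes lay closer to equal expression by their median. The 7 feedback inhibitors had a median log2 ratio of -1.03, and 6 of them were lower beyond counting error. The median was -0.12 over 19 RAF, MAP kinase kinase and MAP kinase genes, of which 9 were lower and 2 higher beyond counting error. Of the 51 genes, 28 (54.9%) were lower beyond counting error, against 28.1% of all genes tested, and 9 (17.6%) were higher, against 28.4%. The members were more deeply covered than most genes, with a median of 70.1 CPM against 16.6 CPM, and counting error is smaller at higher depth. Among genes with at least 5 CPM, where 50 members remained, 27 were lower and 9 higher, against 31.1% and 31.9% of 13569 genes. At least 2-fold lower were 5 members (9.80%), against 5.47% of all genes tested. At least 2-fold higher were 2 members (3.92%), against 7.56%. Among genes with at least 5 CPM, 4 of 50 members (8%) were at least 2-fold lower, against 3.49%. In that set 1 of 50 (2%) was at least 2-fold higher, against 4.47%. The genes named next are those of the 1 CPM filter. All 5 of the lower genes were feedback inhibitors, namely SPRED3, SPRED2, SPRY2, SPRY4 and SPRED1, and the 2 higher genes were ETV4 and KSR1. The median log2 ratio was -0.20 over the 51 genes and -0.0048 over all genes tested. The median of the feedback inhibitors lay between -1.05 and -0.88 under the scalings, filters and prior counts tried. Taking GAPDH reads as the reference added 0.15 to each ratio, which turned the sign of the medians of the adaptors and exchange factors, of the MAP kinases, of the substrate kinases and of the p38 arm, and left SPRED2 and SPRED3 as the lower genes past 2-fold. With that reference, 740 of the 18050 genes tested were at least 2-fold lower. Within 1.5-fold of equal expression under TMM scaling were 37 of the 51, or 72.5%, beside 69.6% of all genes tested.

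**Figure D1:**
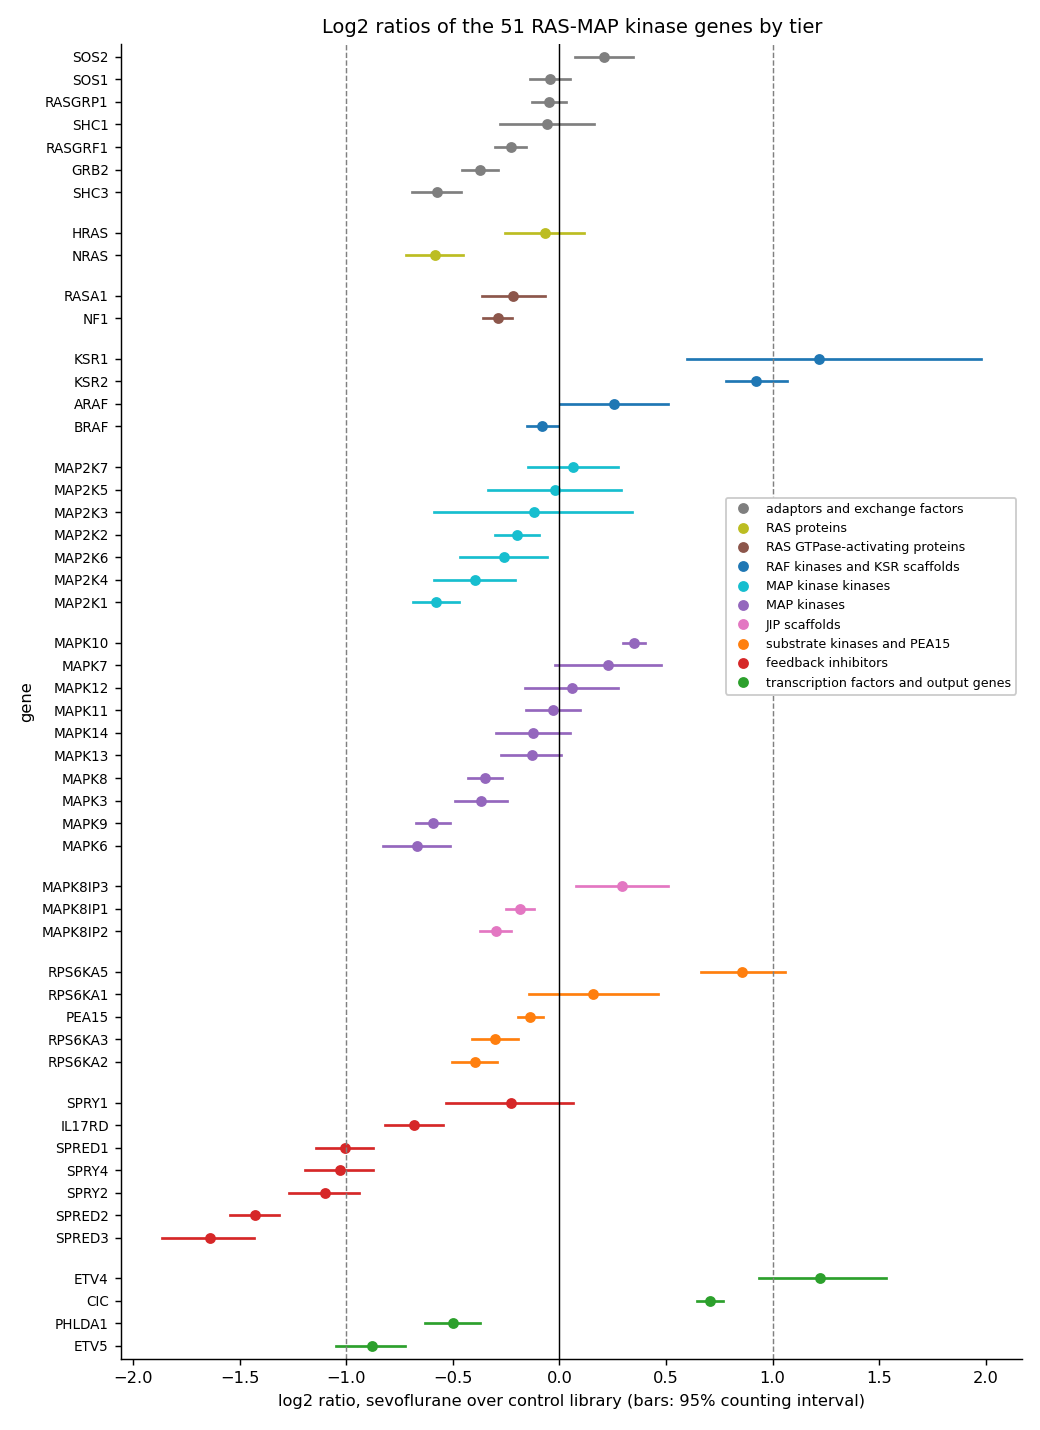
Log2 ratio of the sevoflurane over the control library for each of the 51 genes, ordered by tier, with bars for the 95% counting interval and dashed lines at a 2-fold difference. Of the 7 feedback inhibitors, 6 lie to the left of all MAP kinase kinases, which range from -0.58 to 0.06, and SPRY1 lies among them at -0.23, while ETV4 and KSR1 lie past the dashed line on the right.

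The feedback inhibitors comprise the Sprouty genes, which block the cascade at or above RAF, the SPRED genes, which bring the RAS GTPase-activating protein neurofibromin to the membrane, and IL17RD, a membrane protein that restrains ERK signalling by fibroblast growth factors. SPRED3 had 1133 reads in CON and 214 in SEV (67.4 and 21.5 CPM, log2 ratio -1.64, 95% interval -1.86 to -1.43). SPRED2 had 3407 and 748 reads (203 and 75.3 CPM, log2 ratio -1.43, interval -1.54 to -1.31). The sevoflurane library was thus at 32.0% and 37.2% of the control level for these 2 genes, which had the lowest log2 ratios of the 51. SPRED1 had 1991 and 585 reads (118 and 58.9 CPM, log2 ratio -1.01, interval -1.14 to -0.87). It lay at the 2-fold threshold, which its interval spans, and missed it in 4 of the 8 other settings (library totals, upper quartile, GAPDH and the filter of 5 CPM, from -0.996 to -0.853).

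Sprouty members did not all lie together. SPRY2 had 1437 reads in CON and 395 in SEV (85.5 and 39.8 CPM, log2 ratio -1.10, interval -1.27 to -0.94). SPRY4 had 1429 and 413 reads (85.0 and 41.6 CPM, log2 ratio -1.03, interval -1.19 to -0.87). Both were lower beyond counting error, their log2 ratios could not be told apart (difference 0.07, interval -0.16 to 0.30), and for both the interval spanned the 2-fold threshold. SPRY1 had 282 and 142 reads (log2 ratio -0.23, interval -0.53 to 0.07) and was not distinguishable from equal expression at this depth. The ratio of SPRY1 was above that of SPRY2 by 0.87 on the log2 scale (interval 0.53 to 1.21). IL17RD had 1654 and 609 reads (98.4 and 61.3 CPM, log2 ratio -0.68, interval -0.82 to -0.55). Its interval lay nearer to 0 than those of SPRY2, SPRY4 and the SPRED genes and did not overlap them. Summed over the 7 feedback inhibitors, the level was 674 CPM in CON and 313 CPM in SEV, a log2 ratio of -1.11 (interval -1.17 to -1.05).

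**Figure D2:**
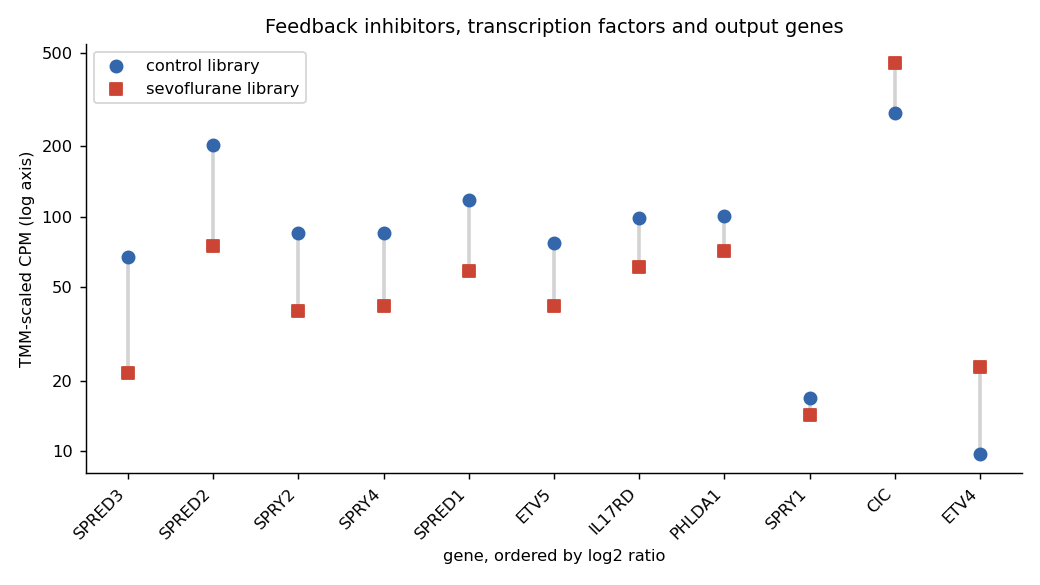
Level of each feedback inhibitor, transcription factor and output gene in the control library (circles) and the sevoflurane library (squares), in TMM-scaled CPM on a log axis and ordered by log2 ratio. The control value is the higher one for 9 of the 11 genes, and CIC and ETV4 show the opposite order.

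At the nuclear end of the cascade, the genes lay on both sides of equal expression. ETV4 and ETV5 are ETS-family transcription factors that growth factor signalling induces in many tissues, and CIC is a repressor of such genes that ERK signalling relieves. ETV5 had 1296 reads in CON and 415 in SEV (77.1 and 41.8 CPM, log2 ratio -0.88, interval -1.05 to -0.72). ETV4 had 164 and 228 reads (9.76 and 23.0 CPM, log2 ratio 1.22, interval 0.94 to 1.53). These paralogs therefore lay on opposite sides of equal expression, and their log2 ratios differed by 2.12 (interval 1.78 to 2.46). Of the reads on ETV4 and ETV5 together, ETV4 took 11.2% in the control (exact 95% interval 9.66 to 13.0) and 35.5% in the sevoflurane library (31.8 to 39.3). CIC had 4651 and 4486 reads (277 and 452 CPM, log2 ratio 0.71, interval 0.65 to 0.77) and was 1.63-fold higher in the sevoflurane library. PHLDA1, whose transcript growth factors induce, had 1700 and 710 reads (101 and 71.5 CPM, log2 ratio -0.50, interval -0.63 to -0.37). The median of the 4 genes was 0.10, which hides that 2 were higher and 2 lower beyond counting error.

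Upstream, the adaptors and exchange factors had a median log2 ratio of -0.06, with 3 of 7 lower and 1 higher beyond counting error. Of all genes tested, 28.1% were lower and 28.4% higher. The counts for each tier, list and marker set below are to be read beside these shares. GRB2, the adaptor that links receptors to SOS, had 3748 and 1712 reads in CON and SEV (log2 ratio -0.37, interval -0.45 to -0.29). SHC3, the neuronal member of the SHC adaptors, had 2155 and 854 reads (log2 ratio -0.58, interval -0.69 to -0.46). The more widely expressed SHC1 had 463 and 263 reads (log2 ratio -0.06, interval -0.28 to 0.16), so the neuronal adaptor was lower and SHC1 was not distinguishable from equal expression. The ratio of SHC1 lay 0.52 above that of SHC3 (interval 0.27 to 0.77). SOS1 and SOS2 are exchange factors that activate RAS after receptor signalling. SOS1 had 2497 and 1432 reads (log2 ratio -0.04, interval -0.14 to 0.05), and SOS2 had 1093 and 747 (0.21, interval 0.07 to 0.35). RASGRP1 and RASGRF1 couple calcium and diacylglycerol signals to RAS in neurons. RASGRP1 had 3470 and 1984 reads (log2 ratio -0.05, interval -0.13 to 0.03), and RASGRF1 had 4649 and 2344 (-0.23, interval -0.30 to -0.16). SOS2 was thus the single gene of this tier that was higher, and RASGRF1 the single exchange factor that was lower. In the RefSeq gene table, RASGRF1 overlaps ANKRD34C, which had 238 and 70 reads (log2 ratio -0.99).

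RAS itself and the proteins that switch it off were lower or near equal. NRAS had 1634 reads in CON and 644 in SEV (97.2 and 64.8 CPM, log2 ratio -0.58, interval -0.72 to -0.45). HRAS had 660 and 372 reads (39.3 and 37.5 CPM, log2 ratio -0.07, interval -0.26 to 0.12). The NRAS level was lower beyond counting error and the HRAS level was not distinguishable, with a difference of 0.52 between the ratios (interval 0.29 to 0.75). NF1, which encodes neurofibromin, had 5150 and 2490 reads (log2 ratio -0.29, interval -0.36 to -0.22). RASA1, the other GTPase-activating protein listed, had 1109 and 564 reads (log2 ratio -0.22, interval -0.37 to -0.07). Both were lower by less than 1.5-fold. In the RefSeq gene table, OMG, EVI2A and EVI2B lie within NF1 and CCNH overlaps RASA1, and whether reads were assigned by strand is not given in the sources used here.

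In the RAF tier, the scaffolds lay farther from equal expression than the kinases. KSR1 and KSR2 are RAF-related scaffolds that hold RAF, MAP kinase kinase and ERK together, and KSR2 is the form known from brain. KSR2 had 780 reads in CON and 875 in SEV (46.4 and 88.1 CPM, log2 ratio 0.92, interval 0.78 to 1.07), and passed 2-fold with GAPDH as reference (1.08) or with the control library thinned to the depth of SEV (1.03). KSR1 had 32 and 46 reads (1.90 and 4.63 CPM, log2 ratio 1.22, interval 0.60 to 1.98), the lowest counts of the 51 genes. Both scaffolds had more reads in the shallower library, and at this depth their ratios could not be told apart (difference -0.36, interval -1.07 to 0.34). BRAF, the main activator of the ERK arm in neurons, had 4250 and 2374 reads (253 and 239 CPM, log2 ratio -0.08, interval -0.15 to -0.0085). ARAF had 313 and 221 reads (18.6 and 22.3 CPM, log2 ratio 0.25, interval 0.0017 to 0.51). Both intervals ended next to 0, BRAF was on the other side of 0 with GAPDH as reference (0.072), and ARAF is X-linked and overlaps SYN1 in the RefSeq table, where SYN1 had a log2 ratio of 0.06. The ratio of KSR2 was above that of BRAF by 1.01 (interval 0.85 to 1.17).

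**Figure D3:**
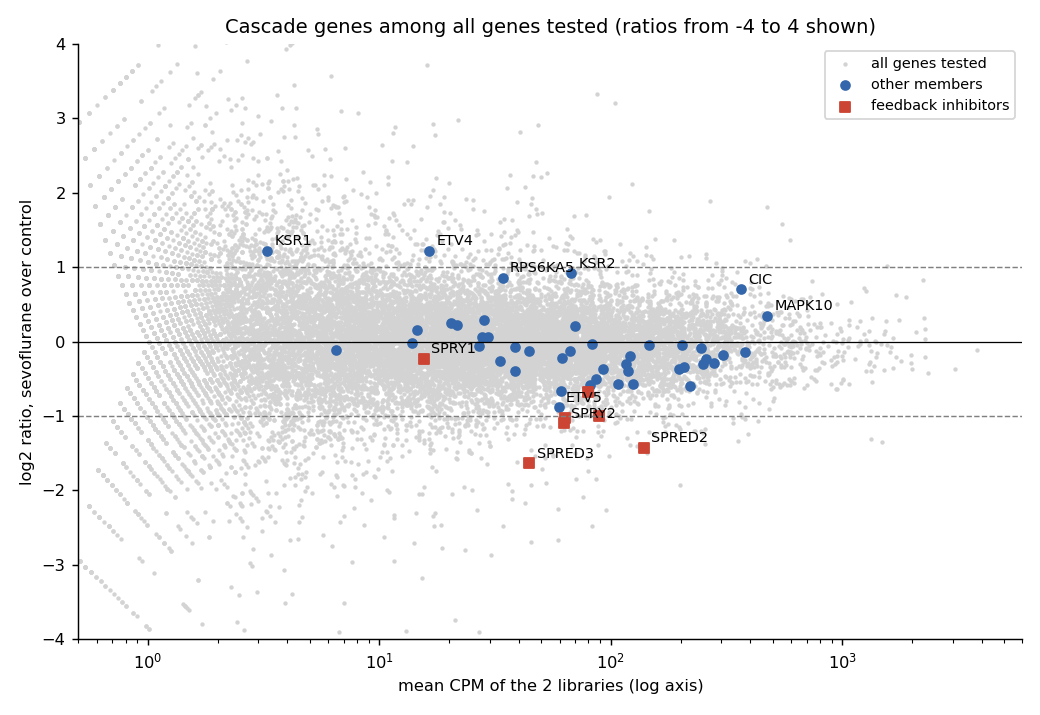
Log2 ratio against the mean CPM of the 2 libraries (log axis) for all 18050 genes tested (grey), the feedback inhibitors (squares) and the other cascade genes (circles), with dashed lines at a 2-fold difference; ratios beyond 4 in size are not drawn. Most cascade genes lie inside the grey band around 0. SPRED3 and SPRED2 lie farthest below the lower dashed line, and SPRY2, SPRY4 and SPRED1 lie just below it. ETV4 and KSR1 lie above the upper dashed line, and KSR2 and RPS6KA5 lie near it from below.

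The MAP kinase kinases had a median log2 ratio of -0.20, and 4 of 7 were lower beyond counting error. MAP2K1, which encodes MEK1 and phosphorylates ERK, had 2511 reads in CON and 994 in SEV (149 and 100 CPM, log2 ratio -0.58, interval -0.69 to -0.47). MAP2K2, which encodes MEK2, had 2165 and 1115 reads (129 and 112 CPM, log2 ratio -0.20, interval -0.30 to -0.09). Both were lower, and the ratio of MAP2K2 lay 0.38 above that of MAP2K1 (interval 0.23 to 0.53). MAP2K4 and MAP2K7 activate JNK. MAP2K4 had 735 and 330 reads (log2 ratio -0.39, interval -0.59 to -0.21), and MAP2K7 had 482 and 298 (0.06, interval -0.15 to 0.28). MAP2K3 and MAP2K6 activate p38. MAP2K3 had 114 and 62 reads (log2 ratio -0.12, interval -0.59 to 0.34), and MAP2K6 had 607 and 299 (-0.26, interval -0.47 to -0.06). MAP2K5, the activator of the large MAP kinase ERK5, had 235 and 137 reads (log2 ratio -0.02, interval -0.33 to 0.29). MAP2K3, MAP2K5 and MAP2K7 were thus not distinguishable from equal expression, and MAP2K3 had the fewest reads of the tier.

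Among the MAP kinases, the 3 JNK genes differed from each other, and no p38 gene was distinguishable from equal expression. MAPK8, MAPK9 and MAPK10 encode JNK1, JNK2 and JNK3, of which JNK3 is largely neuronal. MAPK10 had 6979 reads in CON and 5252 in SEV (415 and 529 CPM, log2 ratio 0.35, interval 0.30 to 0.40). MAPK8 had 3896 and 1808 reads (232 and 182 CPM, log2 ratio -0.35, interval -0.43 to -0.27), and MAPK9 had 4434 and 1738 (264 and 175 CPM, -0.59, interval -0.67 to -0.51). MAPK10 was thus the single JNK gene that was higher, and its ratio exceeded that of MAPK8 by 0.70 (interval 0.60 to 0.79) and that of MAPK9 by 0.94 (interval 0.85 to 1.04). Of all JNK reads, MAPK10 took 45.6% in the control (exact 95% interval 44.8 to 46.4) and 59.7% in the sevoflurane library (58.7 to 60.7). Summed over the 3 genes, the JNK level was 911 and 886 CPM (log2 ratio -0.04, interval -0.08 to -0.0024), so the sum was nearly equal while its makeup was not. How reads that match more than 1 of these paralogs were counted is not given in the sources used here.

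**Figure D4:**
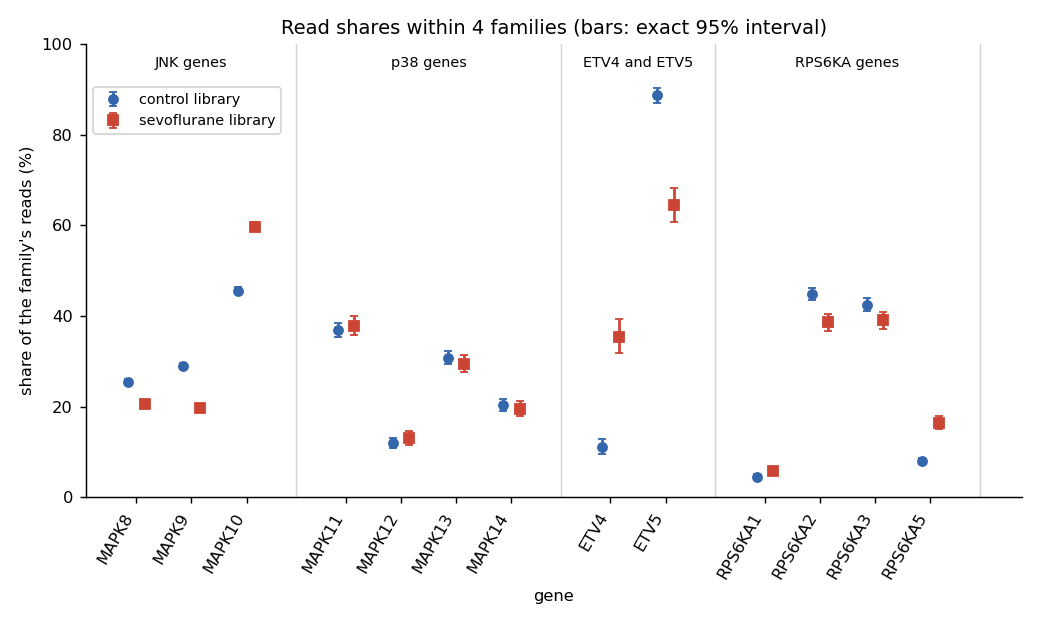
Share of a family's reads (%) that each gene took in the control library (circles) and the sevoflurane library (squares), with exact 95% binomial intervals, for the JNK, p38, ETV and RPS6KA genes. Shares of MAPK10, ETV4 and RPS6KA5 are higher in the sevoflurane library, and the p38 shares overlap.

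The p38 genes were close to equal expression throughout. MAPK14, which encodes the widely expressed p38 alpha, had 774 reads in CON and 420 in SEV (log2 ratio -0.12, interval -0.30 to 0.05). MAPK11 had 1405 and 814 reads (-0.03, interval -0.15 to 0.10), MAPK12 had 457 and 281 (0.06, interval -0.16 to 0.27), and MAPK13 had 1175 and 634 (-0.13, interval -0.27 to 0.01). None of the 4 was distinguishable from equal expression, and the intervals leave room for a difference of up to 0.30 on the log2 scale. Their sum was 227 CPM in CON and 216 CPM in SEV (log2 ratio -0.07, interval -0.14 to 0.01). MAPK11 took 36.9% of the p38 reads in CON and 37.9% in SEV, and the shares of the other p38 genes likewise had overlapping intervals.

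MAPK3, which encodes ERK1, had 1755 reads in CON and 803 in SEV (104 and 80.9 CPM, log2 ratio -0.37, interval -0.49 to -0.25). MAPK6, an atypical MAP kinase known as ERK3, had 1257 and 467 reads (74.8 and 47.0 CPM, log2 ratio -0.67, interval -0.83 to -0.52). MAPK6 had the lowest ratio of the kinases listed. MAPK7, which encodes ERK5, had 335 and 232 reads (log2 ratio 0.23, interval -0.02 to 0.47). It overlaps MFAP4 and B9D1 in the RefSeq table, and MFAP4 had 42 and 118 reads (log2 ratio 2.18). Over the 19 RAF, MAP kinase kinase and MAP kinase genes, none was past 2-fold, 17 lay within 1.5-fold of equal expression and the median was -0.12. By arm, the median log2 ratio was -0.20 over 5 genes of the ERK arm (MAP2K1, MAP2K2, MAP2K5, MAPK3 and MAPK7), -0.24 over 8 genes of the JNK arm with its scaffolds, and -0.12 over 6 genes of the p38 arm.

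The JIP scaffolds tether JNK to its activators and to kinesin motors. MAPK8IP1 had 5463 reads in CON and 2838 in SEV (log2 ratio -0.19, interval -0.25 to -0.12). MAPK8IP2 had 4650 and 2235 reads (-0.30, interval -0.37 to -0.23). MAPK8IP3, known as JIP3, had 425 and 308 (0.29, interval 0.08 to 0.51). MAPK8IP3 thus lay on the other side of equal expression from the other 2, and all 3 were within 1.5-fold. It overlaps NME3 in the RefSeq table, which had 328 and 99 reads (log2 ratio -0.96).

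Of the kinases that MAP kinases activate, RPS6KA5 stood apart. RPS6KA5 encodes MSK1, a nuclear kinase that phosphorylates histone H3 and CREB downstream of ERK and p38. It had 406 reads in CON and 436 in SEV (24.2 and 43.9 CPM, log2 ratio 0.86, interval 0.66 to 1.06), and passed 2-fold with GAPDH as reference (1.01). RPS6KA5 overlaps DGLUCY in the RefSeq table, a gene not found by that name among the counts. RPS6KA2 and RPS6KA3 encode ribosomal S6 kinases (RSK) that ERK activates, and were lower. RPS6KA2 had 2270 and 1018 reads (log2 ratio -0.40, interval -0.51 to -0.29), and RPS6KA3, which is X-linked, had 2150 and 1031 (-0.30, interval -0.41 to -0.19). RPS6KA1, the remaining RSK gene listed, had 230 and 152 reads (0.16, interval -0.14 to 0.46) and was not distinguishable. The ratio of RPS6KA5 exceeded that of RPS6KA3 by 1.16 (interval 0.94 to 1.39) and that of RPS6KA2 by 1.26 (interval 1.03 to 1.49). RPS6KA5 took 8.03% of the reads of these 4 genes in the control (exact 95% interval 7.30 to 8.81) and 16.5% in the sevoflurane library (15.1 to 18.0). PEA15, an astrocyte-rich protein that holds ERK in the cytoplasm, had 6703 and 3601 reads (399 and 363 CPM, log2 ratio -0.14, interval -0.20 to -0.08), and lay at 0.016 with GAPDH as reference.

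Differences between the ratios of 2 genes, as given above, do not depend on how the libraries were scaled. They were computed for 19 pairs of members, chosen with earlier results of these data known. The counting interval excluded 0 in 16 of them. The 3 exceptions were SPRY4 and SPRY2, SPRED2 and SPRED3 (difference 0.22, interval -0.03 to 0.46), and KSR2 and KSR1. The same count was not made for pairs of other genes, so it is not a result about the cascade. The ratio of SPRED1 was above that of SPRED3 by 0.64 (interval 0.38 to 0.89), so the SPRED genes were all lower but not equally so.

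Genes of the pathway outside the 51 gave a mixed background. Of all genes tested, 28.1% were lower and 28.4% higher beyond counting error, and 5.47% and 7.56% were so by at least 2-fold. Of 10 growth factor receptors, 6 were lower and 2 higher beyond counting error, with a median of -0.13, and 1 was past 2-fold. It was ERBB3, a neuregulin receptor, with 690 reads in CON and 137 in SEV (log2 ratio -1.56, interval -1.85 to -1.31). Of 21 other RAS adaptors and regulators tested (1 more was below 1 CPM), 9 were lower and 9 higher, with a median of -0.12, and 3 were at least 2-fold lower. The lowest were SHC4, an SHC adaptor with 62 and 7 reads (log2 ratio -2.17, interval -3.76 to -1.26), and RASAL1, a RAS GTPase-activating protein with 2160 and 527 reads (log2 ratio -1.27, interval -1.42 to -1.14). The remaining one, RRAS2, a RAS-related GTPase, had 604 and 162 reads (log2 ratio -1.13, interval -1.40 to -0.89). Of the 18 MAP kinase kinase kinases, 9 were higher and 2 lower, with a median of 0.22, and MAP3K6 was past 2-fold with 180 and 238 reads (log2 ratio 1.15, interval 0.88 to 1.45). Of the 14 substrate transcription factors, 10 were higher and 2 lower (median 0.35), with none past 2-fold. The lower ones were ETV1, with 1477 and 453 reads (log2 ratio -0.94, interval -1.10 to -0.79), and ETS2, with 1700 and 577 (-0.80, interval -0.94 to -0.66). ETV1 thus lay on the same side of equal expression as ETV5. The medians of the MAP kinase kinase kinases and of the substrate transcription factors thus lay above 0, and that of the MAP kinase kinases below it.

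The other scaffolds and inhibitors had a median of -0.25 over 13 genes, with 8 lower and 2 higher beyond counting error. SPRY3, the Sprouty gene outside the 51, was the single one past 2-fold, with 339 reads in CON and 95 in SEV (log2 ratio -1.06, interval -1.42 to -0.74). It lay beside SPRY2 and SPRY4 in its ratio. The other MAP kinases and substrate kinases had a median of -0.08 over 10 genes, and the atypical kinase MAPK4 was past 2-fold on few reads, 24 and 37 (log2 ratio 1.30, interval 0.60 to 2.19).

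**Figure D5:**
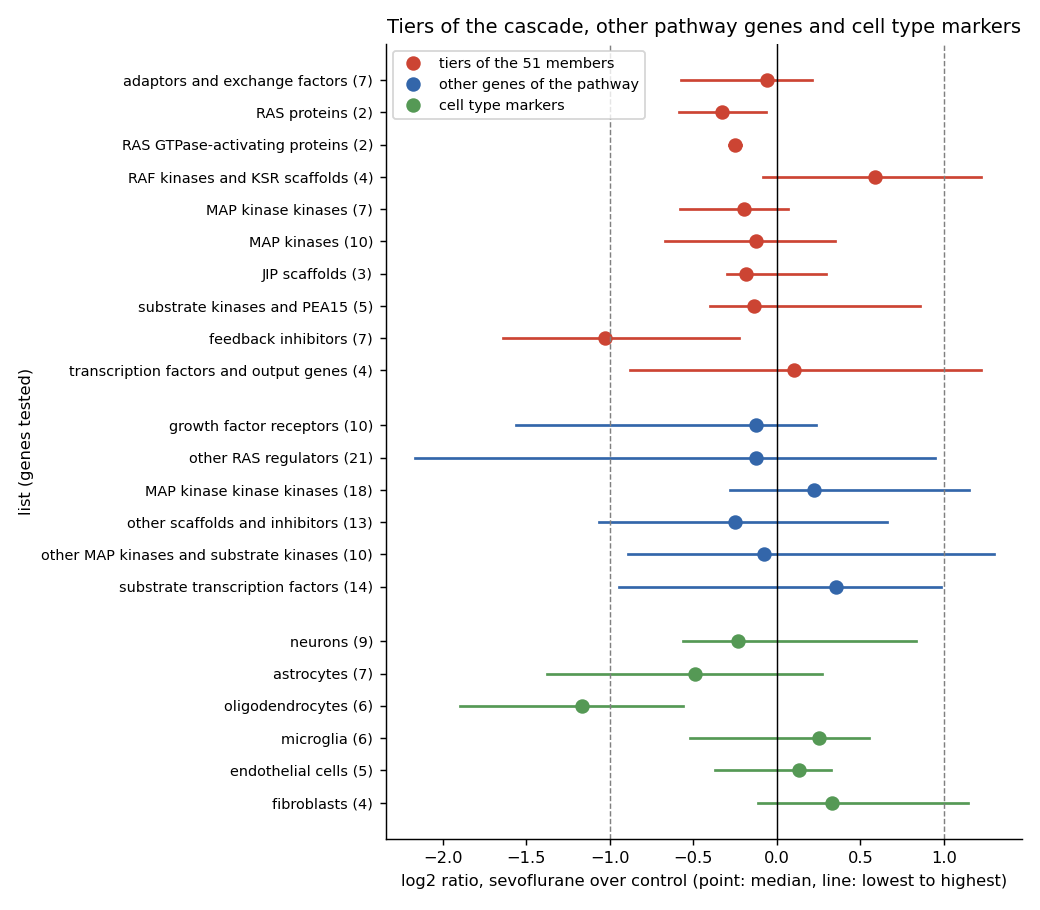
Median (point) and range (line) of the log2 ratio over the tested genes of each tier of the cascade, of the lists of other pathway genes and of the cell type markers, with the number of genes in brackets. The feedback inhibitors, with a median of -1.03, and the oligodendrocyte markers, with -1.17, are the 2 lists whose median lies beyond a 2-fold difference under TMM scaling.

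Markers of some cell types differed between the libraries along with the feedback inhibitors. All 6 oligodendrocyte markers were lower, 5 of them at least 2-fold, and their sum was 4056 CPM in CON and 1994 CPM in SEV (median log2 ratio -1.17). Of the 7 astrocyte markers, 5 were lower and 1 higher, with sums of 6147 and 4264 CPM (median -0.49). Of the 9 neuronal markers, 7 were lower and 1 higher (median -0.23). Microglial markers summed to 214 CPM in each library (2 of 6 higher, 1 lower), endothelial markers to 150 and 153 CPM (1 of 5 higher, 1 lower), and fibroblast markers to 203 and 344 CPM (2 of 4 higher). For the feedback inhibitors, ETV5, ERBB3, SHC4 and the other lower genes, the part of these cell types in the lower levels was not tested.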

How the data were processed

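Raw counts of reads on each gene were deposited by the authors for 2 prefrontal cortex libraries, 1 control and 1 sevoflurane, grouped by the sample labels. The submitters' processing notes name HISAT2 2.0.4; the counting tool, genome build and annotation are not given in the sources used here, so no coordinates are given. The counts were scaled with TMM (edgeR 4.0.16, R 4.3.3; factors 0.991 and 1.01) on genes that reached 1 CPM in at least 1 library. Log2 ratios used a prior count of 2, and intervals were exact Clopper-Pearson 95% limits (scipy 1.17.1, numpy 2.4.6, pandas 2.3.3, Python 3.11.15, matplotlib 3.10.9). Differences between 2 ratios had conditional exact odds ratio intervals. A quasi-likelihood test in edgeR needs replicates, so none was run and there are no p-values.

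All members were named, and from each other pathway list up to 2 highest and 2 lowest genes past 2-fold. RRAS2, ETV1, ETS2 and the overlapping genes were named after their values were seen. The members, lists and gene pairs were chosen with earlier results of these data known. All 51 members matched the RefSeq table of the assembly T2T-MMU8v2.0, used for overlapping genes and X linkage, and 23 overlapped another gene in it. Exon lengths were not used here, so the shares of reads within families and the summed CPM depend on them. Shares and sums were compared between the 2 libraries, not as levels of 1 gene against another. The steps were tested on simulated data. Other settings tried were scaling by DESeq2 1.42.0, by library totals, by the upper quartile or by GAPDH, a prior count of 0.5, a filter of 1 read or 5 CPM, a 99.9% interval, a 1.5-fold or 4-fold threshold, and thinning of the control library.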

Additional observations from a re-analysis of the deposited data

How the results depend on the processing

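Scaling by the GAPDH reads raised every log2 ratio by 0.15, because GAPDH itself was lower in the sevoflurane library, and the other scalings moved them by 0.03 or less. With GAPDH, 4 of the 51 members were at least 2-fold higher and 2 lower (SPRED2 and SPRED3). Over all 18050 genes tested, 1762 were at least 2-fold higher and 740 lower at this setting. With GAPDH, 14 members were higher beyond counting error, a count that was not made over all genes. The medians became -0.045 for all members, the MAP kinase kinases and the ERK arm, 0.10 for the adaptors and exchange factors, -0.10 for the RAS GTPase-activating proteins, -0.033 for the JIP scaffolds, 0.26 for the transcription factors and output genes, -0.089 for the JNK arm and 0.016 for the substrate kinases and PEA15. Among the members called beyond counting error, BRAF (0.072) and PEA15 (0.016) changed sign, as did 9 members that were not called (HRAS, SOS1, SHC1, RASGRP1, MAP2K3, MAP2K5, MAPK11, MAPK13 and MAPK14). With a filter of 5 CPM, 1 member was at least 2-fold higher, since KSR1 was not tested, and the median of the RAF tier became 0.28. A threshold of 1.5-fold gave 5 higher and 9 lower members, and 4-fold gave 0 and 0. These 2 thresholds were not counted over all genes, so the counts are not a result about the cascade.

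Of 407 single-gene values, 377 stayed within their counting interval, and the 30 that left it were all under GAPDH. Without GAPDH, MAP2K3 changed sign with the control library thinned (0.15), and MAP2K5 with library totals (0.0071) and with the filter of 5 CPM (0.0026); neither was called. The median of the feedback inhibitors ranged from -1.05 to -0.88.

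No paired analysis was possible because there was 1 library in each group, and leaving out replicates was not run for the same reason. With 46 reads in the sevoflurane library, KSR1 was the member that depth limited most.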
